A study of Homo sapiens with 8 samples.

Results

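Many protein-coding genes also give transcripts that RefSeq lists as non-coding. They are spliced from the same gene as the mRNA but carry no annotated protein product, because a skipped exon, an added exon, a retained intron or another start breaks the reading frame. Such transcripts carry accessions that begin with NR_, while the mRNAs of the gene carry accessions that begin with NM_. When a ribosome stops well before the last exon junction of a transcript, the cell can degrade it by nonsense-mediated decay (NMD), in which UPF1 and its partners recruit nucleases, and genes for splicing factors are textbook cases that use a poison exon with a stop codon in this way. Other non-coding isoforms keep an intron and can stay in the nucleus, out of reach of ribosomes.

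The 702 non-coding isoforms described here are the NR_ accessions that had a value in both stability tables of the study and whose gene also had at least 1 NM_ accession with a value in both. They make up 33.5% of the 2096 NR_ accessions in both tables, which hold 19334 transcripts in all, and come from 591 genes, 5.23% of the 11302 genes with a coding accession. RefSeq annotates the gene as protein-coding for 700 of them. The other 2, both of ST20, lie in a gene that RefSeq types as a long non-coding RNA, although GENCODE links both to transcripts of protein-coding type. Of the 591 genes, 498 had 1 such isoform, 80 had 2, 9 had 3 and 4 had more, up to the 5 of TMEM139. A single coding isoform served as the comparison for 366 isoforms, 2 did for 206, and between 3 and 6 did for 130.

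The study asked how RNA stability differs when RBMS1, a protein that binds single-stranded nucleic acids, is depleted. It used the cell line SW480, which was established from a human colorectal adenocarcinoma and which the series text calls breast cancer cells. One population stably expressed a control shRNA and the other an shRNA against RBMS1. The series text names 2 RBMS1 shRNA clones and the labels 1, and whether replicate libraries were grown as separate cultures is not stated. Total RNA, depleted of ribosomal RNA, was sequenced before (0 h) and 9 h after alpha-amanitin at 10 µg/mL, which blocks RNA polymerase II. Each of the 4 groups had 2 libraries, 8 in all, and the authors combined them into 1 fold change of 9 h over 0 h per transcript and population.

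These values are taken as log2 and as relative to the rest of the library: a negative value means that a transcript lost more than most others over 9 h without new transcription, and a positive value that it lost less. Every log2 fold change printed for a named transcript comes from the authors' deposited tables, and means over coding isoforms and gaps (defined below) were computed from them. Paired values are given for control cells first and knockdown cells second, and the values after "against" are those of the coding isoform, or the mean where a gene has several. Read depth and the spread between libraries are unknown, so no value has an error, no difference can be judged against the scatter of replicates, and no test was made. In bulk RNA, fewer living cells and less RNA per cell cannot be told apart. Of 10 colon epithelial markers 8 were listed in control cells and 6 in knockdown cells, with CDX1 and CDH17 in neither table, while 1 of 8 breast markers, KRT5, was listed in each and 2 and 3 of 18 markers of fibroblast, immune, endothelial and blood cells were. RBMS1 itself had deposited values of 0.09 and −0.35 (NM_002897) and −0.37 and −1.38 (NM_016836) in control and knockdown cells. Such ratios over time do not show how far RBMS1 was depleted.

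The stop codons below show how several of these isoforms are built, since an early stop is the feature by which GENCODE types 236 of them, as described further on. Each 30-base window is read 5′ to 3′ on the transcript strand from the GENCODE release 29 transcript (GRCh38) that GENCODE cross-references to the RefSeq accession, a link that does not make the sequences identical, and the annotated stop codon is in capitals. In the first 6, of RBM39, NABP1, PPP2R2D, SRSF3, SRSF6 and UHRF2, the stop lies in an exon that none of the gene's listed coding transcripts has. In the last 2, of HNRNPDL and CFAP298, the stop does not lie in such an exon. Whether the stop bases themselves are shared with a coding transcript was not examined.
RBM39 NR_040723: ctctacatctccttgTGAttggagtgtggg
NABP1 NR_045622: tcctctctaggggtgTAAgattttgtatgg
PPP2R2D NR_033191: cgtcctgccctgccaTGAagtgtgagcagc
SRSF3 NR_036610: cttctcaccaccctcTGAatctgcattagc
SRSF6 NR_034009: gcagccttttgccatTAGacgcagggtgat
UHRF2 NR_046386: gtcttgacagagttaTGAatatgaatattg
HNRNPDL NR_003249: aattaccagccatacTAAaggagaacattg
CFAP298 NR_036552: ggggttgccaccgtaTGAtcccatccgcat

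In GRCh38 the RBM39 stop is at chr20:35734215-35734217 on the minus strand, in an exon of 72 nt at chr20:35734186-35734257, 1420 nt before the last exon junction of the transcript. The NABP1 stop, at chr2:191682592-191682594 on the plus strand, sits in an exon of 104 nt and 144 nt before the last junction. In PPP2R2D the stop is at chr10:131934927-131934929, plus strand, in an exon of 113 nt. The poison exons of the SR protein genes are longer, 456 nt at chr6:36599821-36600276 in SRSF3 and 268 nt at chr20:43459153-43459420 in SRSF6, both on the plus strand. UHRF2 has its stop at chr9:6492315-6492317, plus strand, in an exon of 99 nt. The HNRNPDL stop is at chr4:82426059-82426061 on the minus strand, 127 nt before the last junction, and the CFAP298 stop at chr21:32604174-32604176, also on the minus strand, 277 nt before it.

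As a class, the non-coding isoforms had medians within 0.1 of those of their coding isoforms, with a wider spread. Their median log2 fold change was 0.03 in control cells (quartiles −0.68 and 0.58) and −0.01 in knockdown cells (quartiles −0.75 and 0.55). The coding means of the same 591 genes had medians of 0.05 (quartiles −0.42 and 0.39) and −0.05 (quartiles −0.54 and 0.31). Averaging over isoforms narrows the spread of these means. In member genes with several coding accessions, single coding accessions had interquartile ranges of 0.97 and 1.00. The non-coding isoforms of those genes had 1.43 and 1.38. Values of −1 or below, a loss of at least 2-fold relative to the library, were held by 134 members (19.1%) in control cells and by 134 (19.1%) in knockdown cells, against 12.2% of all 19334 transcripts in control and 12.2% in knockdown cells. Values of 1 or above were held by 96 (13.7%) and 100 (14.2%), against 6.63% and 7.13%. Both tails were fuller than over all transcripts, and in each population more members were at −1 or below than at 1 or above, as was the case over all transcripts. The 1394 other NR_ accessions, whose gene had no coding accession in both tables or no symbol, had medians of 0.16 and 0.16.

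The gap, the value of a non-coding isoform minus the mean value of the coding isoforms of its gene, removes what the isoforms of a gene share and also any scale factor of a library. Its median was 0.03 in control cells, with quartiles of −0.85 and 0.89, and 0.08 in knockdown cells, with quartiles of −0.78 and 0.91. The gap was negative in 344 and positive in 358 members in control cells, and negative in 334 and positive in 368 in knockdown cells. A gap of −1 or below was found for 153 (21.8%) in control and 144 (20.5%) in knockdown cells. A gap of 1 or above was found for 162 (23.1%) and 167 (23.8%). Within 1 of their coding isoforms lay 387 (55.1%) and 391 (55.7%).

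For comparison, each of 9874 coding accessions was set against the mean of the other coding accessions of its gene, a comparison that is close to symmetric by construction. Gaps of −1 or below made up 17.6% of these in control and 18.6% in knockdown cells, and gaps of 1 or above 18.0% and 19.0%. The interquartile range of the gap was 1.74 and 1.69 for the non-coding isoforms, against 1.34 and 1.40 for coding isoforms. Among 709 coding accessions of the members' own genes, the shares at −1 or below and at 1 or above were 17.1% and 18.3% in control and 20.0% and 21.3% in knockdown cells. In control cells the members' shares (21.8% and 23.1%) were above these on both sides, while in knockdown cells (20.5% and 23.8%) the low side was close to that of coding isoforms of the same genes.

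**Figure D1:**
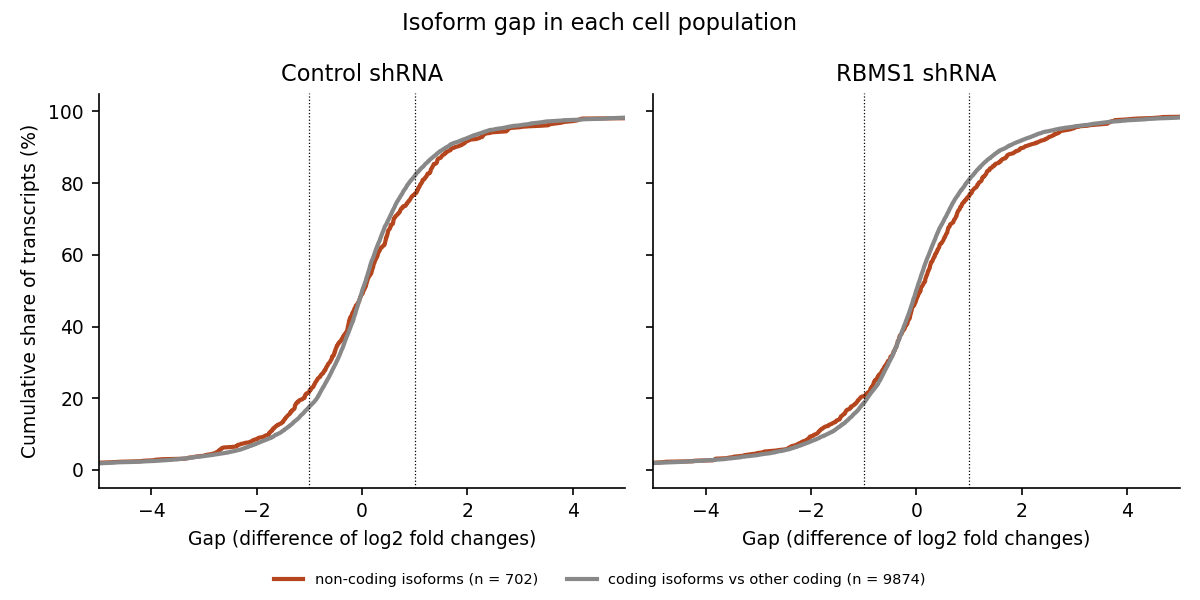
Cumulative share of transcripts (vertical axis, %) against the gap, a difference of log2 fold changes (horizontal axis, drawn from −5 to 5), in control (left) and knockdown cells (right). The red curve of 702 non-coding isoforms and the grey curve of 9874 coding isoforms set against other coding isoforms cross near 0, and the red curve is flatter, with 55.1% and 64.4% of transcripts between the dotted lines at −1 and 1 in control cells.

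The control and the knockdown table come from different libraries, so a gap seen in both was measured separately. The gap had the same sign in both populations in 430 members (61.3%), against 58.4% of the coding accessions and 51.9% of those in the same genes. Gaps of −1 or below in both were held by 61 members (8.69%), against 6.35% of coding accessions, and gaps of 1 or above in both by 68 (9.69%), against 6.8%. Across the 702 members, which share genes and libraries, the gaps of both populations had a Spearman correlation of 0.29 and a Pearson correlation of 0.29, and across the coding accessions 0.21 and 0.15. The levels of non-coding isoforms had a Spearman correlation of 0.36 between populations, and the coding means of their genes 0.52. Averaging over isoforms can raise the latter, so single values and means are not like for like. In member genes with several coding accessions, single coding accessions had 0.31 and the non-coding isoforms 0.28.

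**Figure D2:**
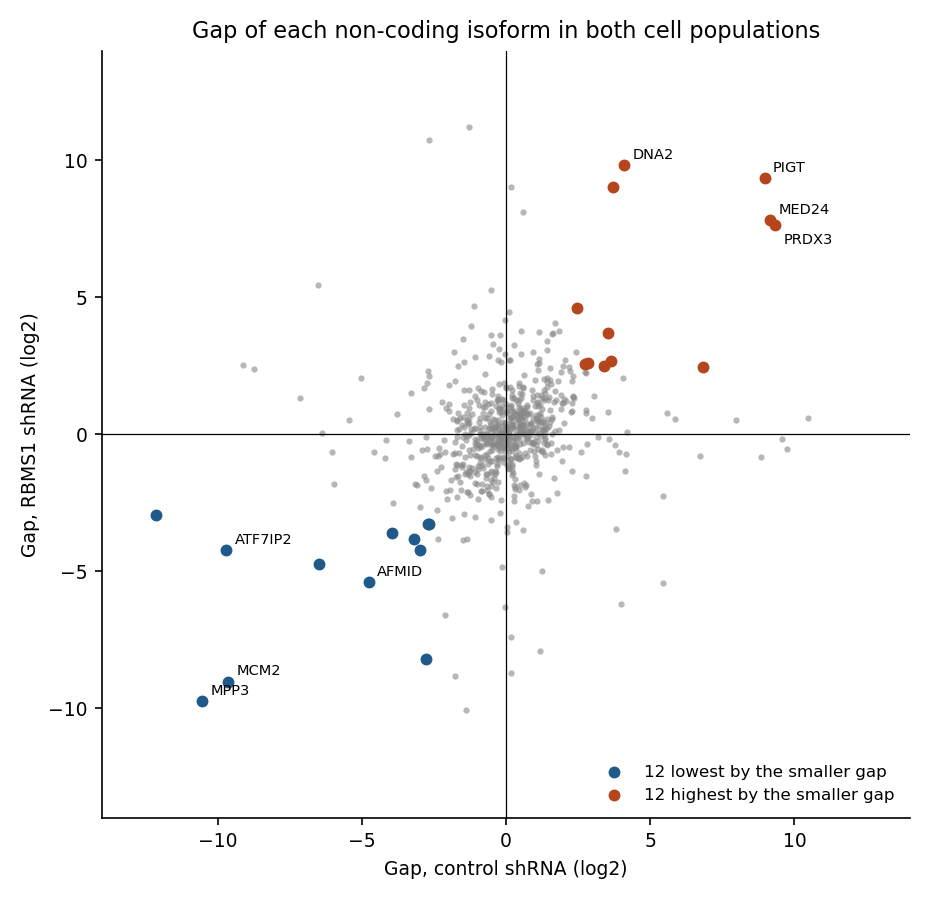
Gap of each of the 702 non-coding isoforms in control cells (horizontal axis, log2) and knockdown cells (vertical axis, log2). Most points lie near the centre, the 12 lowest (blue) and 12 highest (red) by the smaller of both gaps are coloured, and most of those beyond 4 in both are named.

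Genes of RNA-binding proteins that act with the hnRNP proteins, which package nascent RNA and steer splicing, held some of the clearest cases with moderate values. All 3 non-coding isoforms of RBM39 (chr20:35701347-35742260), a splicing factor related to U2AF, stood near 0: NR_040722 had deposited values of 0.15 in control and −0.02 in knockdown cells, NR_040723 of 0.29 and −0.10, and NR_040724 of 0.03 and 0.10. The 4 coding isoforms of RBM39 were all lower, with deposited values between −1.85 and −0.73 in control cells and between −2.26 and −1.58 in knockdown cells. No non-coding value of this gene overlapped a coding value in either population, and how many other genes show this was not counted.

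HNRNPDL (chr4:82422564-82430462), an hnRNP known to regulate the splicing of its own transcripts, showed the same order on average. Its non-coding isoform had deposited values of 0.28 and 0.12, and its coding mean was −1.08 and −1.38, which gave gaps of 1.36 and 1.50. Its coding isoforms were far apart, at 0.06 and −2.23 in control and −0.77 and −1.98 in knockdown cells. So the non-coding isoform lay close to one coding isoform in control cells and far above the other.

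The hnRNP-like list held 10 members of 7 genes, with median gaps of 0.60 and 0.52; 4 members, HNRNPDL and the 3 of RBM39, had gaps of 1 or above in both populations (40% of the list, 3 of them from 1 gene, against 9.69% of all members and 6.8% of coding accessions). For KHDRBS1, the signalling-linked RNA-binding protein Sam68, NR_073498 had deposited values of −0.34 and −1.14 and NR_073499 of 0.14 and 0.23, with the coding isoform at 0.03 and 0.19. PTBP2, the neuronal relative of the polypyrimidine tract-binding protein, had gaps of 0.87 and 0.40, RBM34 of 0.18 and 0.64, and RBMX of 0.33 and 0.01. RBM5, a regulator of apoptotic splicing, had a gap of −0.05 in control cells and a deposited value of −6.68 in knockdown cells, where its coding isoform was at −0.40.

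Among the SR proteins, which bind exonic enhancers, and the kinases that phosphorylate them, no common direction was seen. The 11 members of 9 genes had median gaps of 0.42 and −0.02. Gaps of −1 or below were held by 2 (18.2%) and 1 (9.09%), against 21.8% and 20.5% of all members. Gaps of 1 or above were held by 2 (18.2%) and 1 (9.09%), against 23.1% and 23.8%. The poison exon isoform of SRSF3 had deposited values of −0.38 and −0.98, against −1.01 and −0.98 for the mRNA, so in knockdown cells both were level. The poison exon isoform of SRSF6 was at −0.48 and −0.37, against 0.01 and −0.01, lower than its mRNA by less than 1 in both. SRSF2 had gaps of 0.69 and −0.12.

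SRSF8 was the member of this list with gaps of 1 or above in both populations: its non-coding isoform was at 0.74 and 0.81 and its mRNA at −0.66 and −0.91. SON, a large SR-related protein of nuclear speckles, had gaps of 1.69 and 0.13, and SRSF10 of −1.07 and −0.17, with 1 of its 4 coding isoforms at 4.93 in control cells. CLK1, a kinase of SR proteins known for transcripts with retained introns, had 2 members that differed: NR_027856 was at 0.97 and 0.66 and NR_027855 at −3.17 and −0.32, against a coding mean of 0.20 and −0.09. SRPK1 had gaps of 0.19 and −1.07. In RSRC2, the gaps were −0.25 and −0.02 for NR_036434 and 0.42 and 0.59 for NR_036435.

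**Figure D3:**
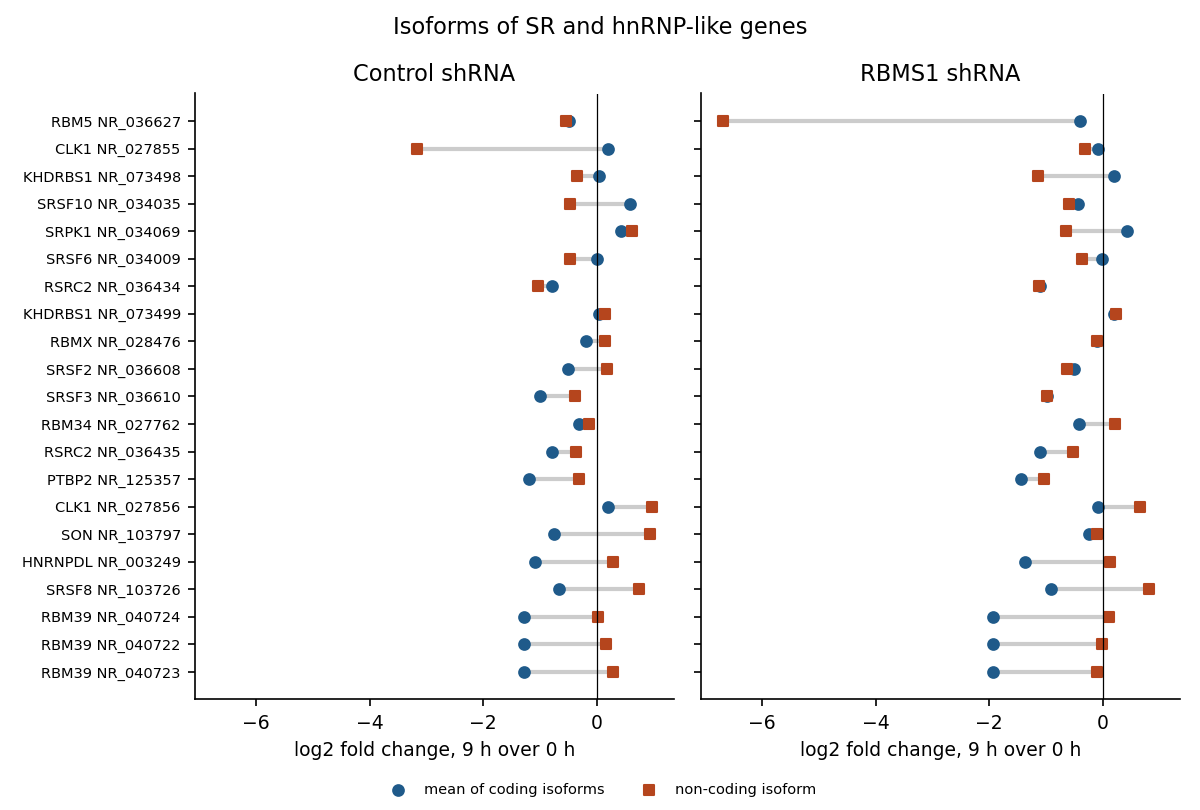
Log2 fold changes of 9 h over 0 h (horizontal axis) of the 21 non-coding isoforms of SR and hnRNP-like genes (red squares) and the means of their coding isoforms (blue circles), in control (left) and knockdown cells (right). The red squares of RBM39, SRSF8 and HNRNPDL lie at least 1 to the right of the blue circles in both panels, and no other isoform does.

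The list of core spliceosome proteins also took in relatives outside the core, LSM1 among them. Its 9 members of 6 genes had median gaps of −0.27 in control and 0.54 in knockdown cells. LSM1, of the cytoplasmic LSM ring that promotes mRNA decapping, had gaps of 0.54 and 1.48 for NR_045492 and −0.86 and −0.02 for NR_045493. U2AF1L4, a relative of the 3′ splice site factor U2AF1, had gaps of −4.21 and −0.88 for NR_110173 and −1.99 and 0.85 for NR_110171. The NMD factors gave 1 member, NBAS, whose non-coding isoform was at 0.63 and −0.44 and its mRNA at −0.33 and 0.18. The coding transcripts of the NMD pathway, 32 of 23 genes, had medians of −0.27 in control and 0.02 in knockdown cells. Values of −1 or below were held by 4 of them (12.5%) in control cells, among them PNRC1, PNRC2 and SMG9, and by 5 (15.6%) in knockdown cells, near the 12.2% of all transcripts. The UPF1 transcript NM_002911 stood at 0.18 and 0.04.

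Sorting the non-coding isoforms by the type that GENCODE gives the matching transcript separated them by how they are built. A GENCODE transcript of NMD type was linked to 236 members, a processed transcript without an open reading frame to 74 and a retained intron transcript to 17. A further 279 were linked to a transcript that GENCODE types as protein-coding, 47 shared their link with other accessions, and 48 had none. The NMD type had median gaps of 0.01 in control and 0.22 in knockdown cells, with 46 (19.5%) and 40 (16.9%) members at −1 or below and 62 (26.3%) and 66 (28.0%) at 1 or above, near the shares over all 702 members (21.8% and 20.5%, and 23.1% and 23.8%). The median of the NMD type was thus not below that of its coding isoforms. Processed transcripts had median gaps of 0.04 and 0.06, with 16 (21.6%) and 21 (28.4%) members on each side, the retained introns −0.13 and −0.12, and the members linked to a protein-coding type 0.10 and 0.01. The 47 with a shared link had median gaps of −0.23 and 0.53, with 12 (25.5%) and 4 (8.51%) at −1 or below and 8 (17.0%) and 17 (36.2%) at 1 or above. The 48 without a link had median gaps of −0.02 and −0.23, with 14 (29.2%) and 16 (33.3%) at −1 or below.

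Within the NMD type, the place of the stop codon went with a difference. This division was made after the values had been seen. All 236 have an annotated stop, 231 of them at least 55 nt before the last exon junction, the distance usually taken as the mark of an NMD target, and the median distance was 347 nt. In 73 members of 70 genes the stop lay in an exon absent from the coding transcripts. For 72 of them it was an inner exon, and these inner exons had a median length of 116 nt. These 73 had median values of 0.06 and 0.11, while the medians of their coding means were −0.10 and −0.18, and their median gaps were 0.24 and 0.59. Gaps of −1 or below were held by 9 (12.3%) and 5 (6.85%) of the 73, against 21.8% and 20.5% of all members. Gaps of 1 or above were held by 24 (32.9%) and 26 (35.6%), against 23.1% and 23.8%.

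Gaps of 1 or above in both populations were found for 15 of the 73 (20.5%), against 9.69% of all members and 6.8% of coding accessions. Gaps of −1 or below in both were found for 2 of the 73, against 8.69% of all members and 6.35% of coding accessions. The 15 belong to RBM39, NABP1, PPP2R2D, USP3, COA8, ANKRD11, LRR1, SPIN3, SLC35B3, ATRNL1, MORN1 and ZFAND4, named here after their values were seen. Both USP3 isoforms, from a deubiquitinase of histones, were among them: NR_046341 had deposited values of 0.15 and −0.22, NR_046342 of 0.48 and −0.16, and the mRNA of −1.85 and −1.52. COA8, a cytochrome c oxidase assembly factor, had NR_126431 at 1.05 and 0.53, NR_126432 at 0.06 and 0.17, and its mRNA at −1.25 and −1.43. For PPP2R2D, a regulatory subunit of protein phosphatase 2A, the non-coding isoform was at 0.58 and 0.51 and the mRNA at −0.61 and −0.54. That the non-coding values of these 3 genes lay above the mRNA in both populations follows from how they were chosen. The mRNA lay below 0 in both.

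The 2 with the opposite order were TMEM222, at −0.85 and −0.86 against 1.06 and 0.81, and NDUFA5 NR_104169, of a subunit of respiratory complex I, at −0.36 and −1.14 against 0.97 and 0.98. UHRF2, a reader of modified cytosine, also lay below its mRNA, with gaps of −0.69 and −1.46. The 163 NMD-type members whose stop was not placed in an exon of their own had median gaps of −0.09 and 0.08. Any member without a linked coding transcript was counted here, as its stop could not be placed. Of the 163, 37 (22.7%) and 35 (21.5%) were at −1 or below and 38 (23.3%) and 40 (24.5%) at 1 or above. CFAP298, shown above, is one of them. Whether the 73 and the 163 differ by more than the error of the values was not tested. In knockdown cells the 47 members with a shared link had a median gap and shares on both sides much like those of the 73, and in control cells they did not.

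**Figure D4:**
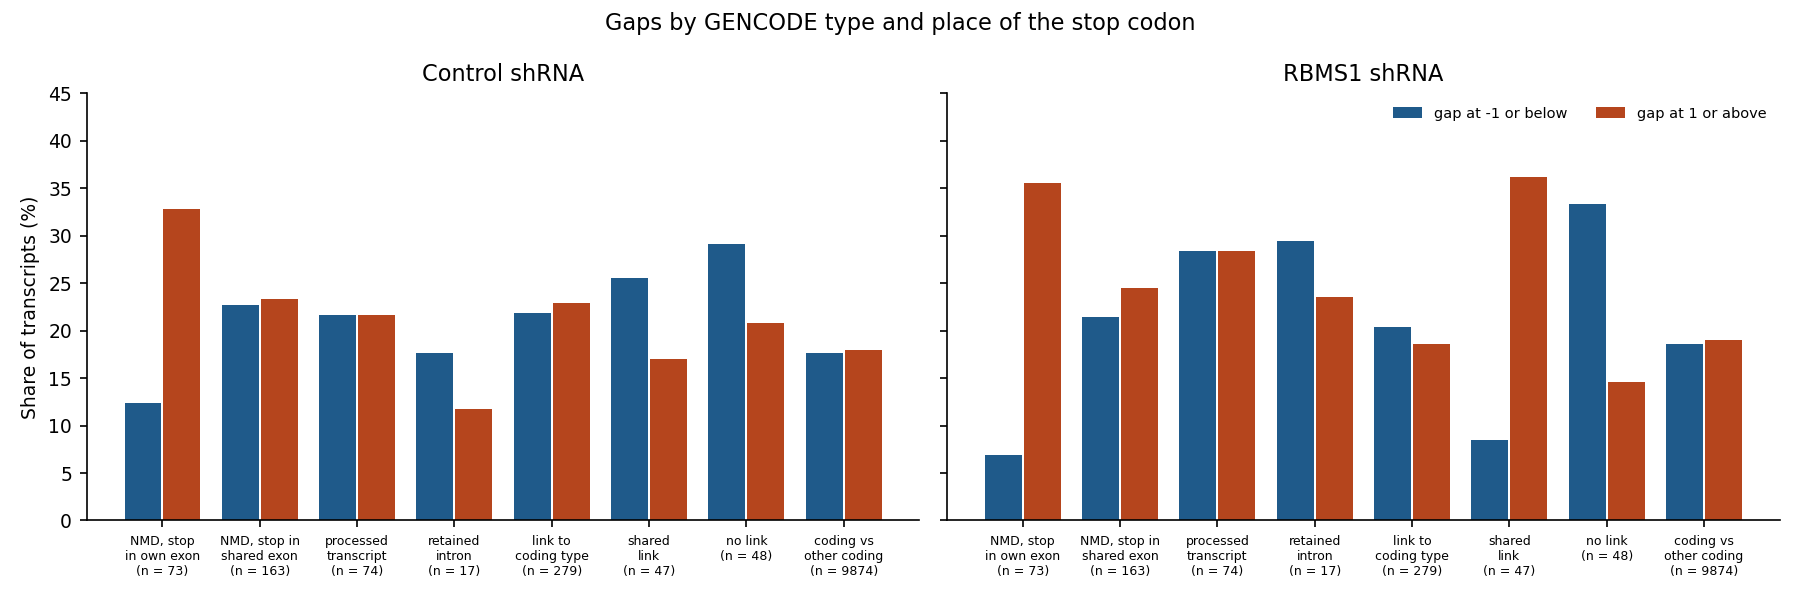
Share of transcripts (vertical axis, %) with a gap of −1 or below (blue) and of 1 or above (red) in control (left) and knockdown cells (right), by type of the linked transcript and place of the stop codon, with coding isoforms set against other coding isoforms at the right. The 73 NMD-type members with the stop in an exon of their own have red bars of 32.9% and 35.6% over blue bars of 12.3% and 6.85%, and the shared-link group has a red bar of 36.2% over a blue bar of 8.51% in knockdown cells alone.

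The isoforms of a gene share most of their sequence, and reads in shared exons have to be divided between them by estimation. In 328 members with a non-coding GENCODE match of their own, the median length was 1844.5 nt. Of these, 322 also had a coding match. The mean length of their coding transcripts had a median of 2235.5 nt, and 194 of the 322 were shorter than this mean for their gene. In the 322, a median of 92.6% of bases was shared with a coding transcript, 181 had under 10% of bases of their own, and 65 had none. The 107 with the smallest own share (0% to 2.79%) had an interquartile range of the gap of 2.11 and 2.23, the middle 107 of 1.63 and 1.50, and the 108 with the largest share (16.1% to 100%) of 1.70 and 1.69. Values over 4 in size were held by 11 and 9 of the first group, 2 and 2 of the second and 1 and 1 of the last. Between populations the gaps had Spearman correlations of 0.35, 0.24 and 0.58. Whether the division of shared reads contributes to any gap was not tested.

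Values over 4 in size were held by 27 members in control (3.85%) and 25 in knockdown cells (3.56%), against 1.57% and 1.68% of all transcripts. Of the 46 members with such a value in either population, 6 had one in both. The lowest and highest gaps rest largely on such values, and their depth is unknown.

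Among the 12 lowest by the smaller of both gaps, some belong to genes of DNA replication and metabolism. MCM2 (chr3:127598411-127622436), a subunit of the replicative helicase, had a non-coding isoform with deposited values of −9.48 and −8.82 and an mRNA at 0.16 and 0.20. PDHB, the beta subunit of pyruvate dehydrogenase, had a retained intron isoform at −3.65 and −3.84 against a coding mean of 0.30 and −0.25. The coding values of both genes were near 0 in both populations, while the non-coding isoform was low in both.

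HOXC5, a homeobox factor, stood at −3.65 and −4.43 against −0.46 and −0.61, and CFAP298, a protein needed for ciliary motility, at −2.71 and −4.22 against 0.27 and 0.01. POC1B, a centriole protein, had NR_037659 at −1.54 and −3.20 and NR_037660 at 0.62 and 0.50 against a coding mean of 1.17 and 0.06. TTC31 was at −2.94 and −8.58 against −0.16 and −0.37. In these 4 genes the non-coding isoform (for POC1B, NR_037659) was the lower in both populations, which follows from how they were chosen.

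In 4 others of the lowest, the coding value was above 3 in at least 1 population. MPP3, a membrane scaffold protein, had an mRNA at 9.31 and 9.07 and a non-coding isoform at −1.23 and −0.66. For AFMID, an enzyme of tryptophan breakdown, 1 of 2 coding isoforms was at 9.33 and 9.46, the other at 0.25 and 0.27, and the non-coding isoform at 0.03 and −0.53, close to the latter. The GORAB mRNA was at 9.49 and −1.06, its non-coding isoform at −2.64 and −4.01, and ATF7IP2 had a non-coding isoform at −6.35 and −3.51 with its mRNA at 3.36 and 0.73.

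The 12 highest divide in the same way. PIGT, a subunit of the enzyme that attaches GPI anchors, had NR_047691 at 9.76 and 9.91 and its mRNA at 0.79 and 0.55, while its other non-coding isoform, NR_047694, was at −5.17 and −1.26. MED24, a Mediator subunit, had a non-coding isoform at 9.26 and 7.97 against a coding mean of 0.10 and 0.15. PRDX3, a mitochondrial peroxiredoxin, had NR_126103 at 9.62 and 7.85, its mRNA at 0.29 and 0.21, and NR_126106 at 0.39 and 0.32, level with the mRNA. In these 3 genes the coding value lay below 1 in size in both populations.

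In several genes a low mRNA made up much of the gap. NABP1, a single-strand DNA-binding protein of the damage response, had an mRNA at −2.26 and −4.76, with NR_045622 at 1.45 and 4.25 and NR_045623 at 0.19 and −0.16. CREBZF, a bZIP transcription factor, had NR_028027 at 1.49 and 1.01, NR_028026 at 0.08 and −0.34, and an mRNA at −1.36 and −1.59. ANKRD13D, a ubiquitin-binding membrane protein, was at 2.23 and 1.45 against −1.41 and −1.23. ZNF345 was at 1.09 and −0.08 against −2.46 and −3.76. These mRNAs were all below −1 in both populations, and their non-coding isoforms were near or above 0.

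RHEBL1, a small GTPase of the mTOR pathway, had a non-coding isoform at 1.94 and 0.76 against a coding mean of −0.81 and −1.79. ARMCX6 had NR_033670 at 1.38 and 0.72 and NR_033669 at −0.95 and −1.27 against a coding mean of −2.03 and −1.77. ELP2, a subunit of the Elongator complex, was at 6.84 and 1.79 against 0.01 and −0.65. DNA2, a helicase and nuclease of replication, was at 2.87 and 9.27 against −1.23 and −0.55, so its extreme value was in knockdown cells alone.

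**Figure D5:**
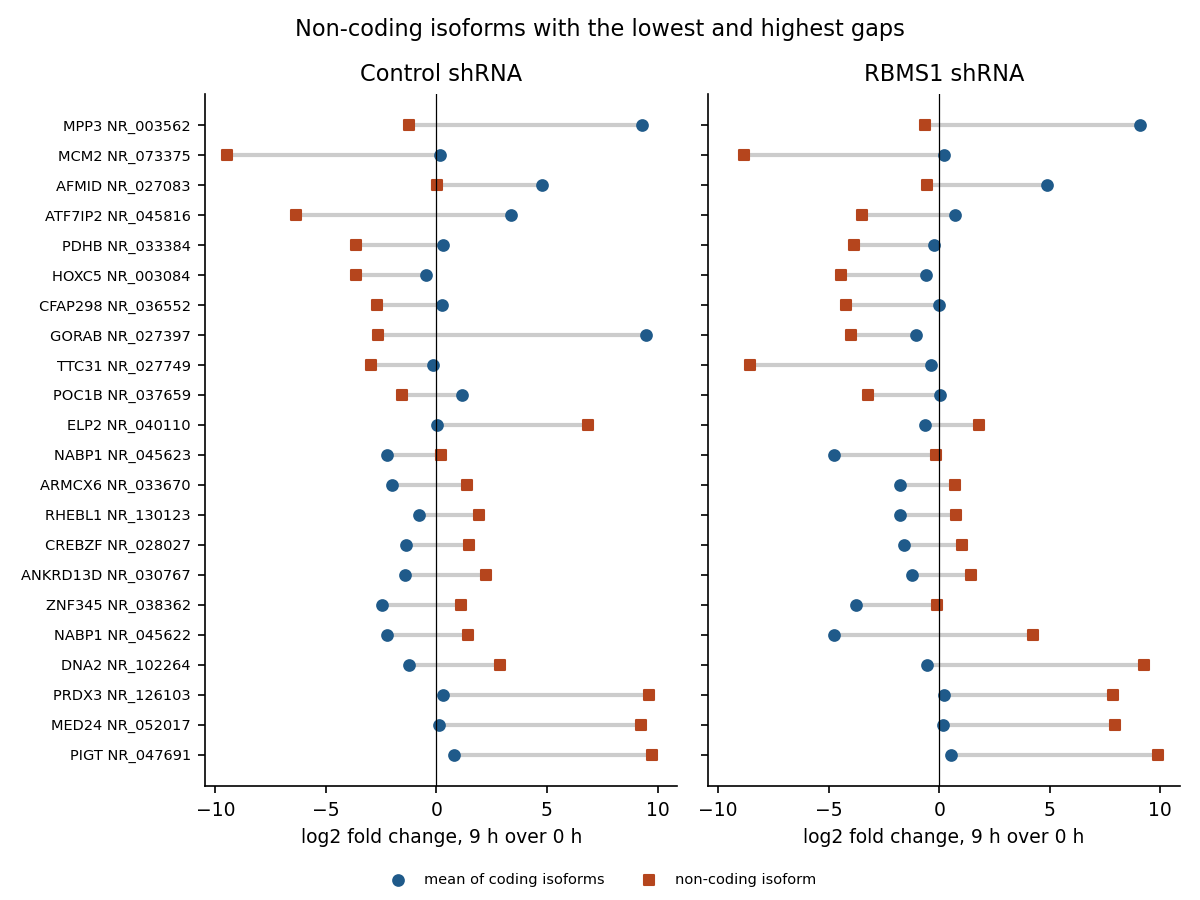
Log2 fold changes of 9 h over 0 h (horizontal axis) of 10 of the non-coding isoforms with the lowest gaps and the 12 with the highest (red squares), with the mean of the coding isoforms of the gene (blue circles), in control (left) and knockdown cells (right). In the upper rows, from MPP3 to POC1B, the square lies left of the circle in both panels, and from ELP2 to PIGT it lies right of it.

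The knockdown gap minus the control gap had a median of 0.02, with quartiles of −0.90 and 1.00. It was 1 or above in 176 members (25.1%), against 21.5% of coding accessions, and −1 or below in 161 (22.9%), against 21.5%. In coding accessions of the same genes these shares were 26.5% and 23.7%, above those of the non-coding isoforms. A gap of −1 or below in control and of 1 or above in knockdown cells was found for 28 members, and the reverse for 15. In coding accessions these made up 3.23% and 3.27%, and in the non-coding isoforms 3.99% and 2.14%.

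All 12 members with the greatest differences had at least 1 isoform value over 4 in size, most often on 1 side and in 1 population. LATS1, a kinase of the Hippo pathway, had a non-coding isoform at −1.87 and 9.58 and an mRNA at −0.58 and −1.62. In WDR72 it was the mRNA that differed, at 1.50 and −9.98, and the non-coding isoform was at −1.19 and 0.75. THADA was at −9.84 and 2.04 against −0.71 and −0.48, TMEM150A at −7.12 and 2.39 against 1.63 and 0.02, and ACTR3B at −6.24 and 0.98 against 0.28 and −4.46. In knockdown cells the ACTR3B coding isoforms were at −0.001 and −8.92. GORAB, given above, had a difference of 9.18.

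In the opposite direction, TARS1, the cytosolic threonyl-tRNA synthetase, had NR_047677 at 9.59 and −0.32, NR_047676 at −1.09 and 0.06 and NR_047678 at −1.44 and 0.93 against 0.01 and −0.16. KLHDC3, a substrate receptor of a ubiquitin ligase, was at 9.37 and −0.71 against −0.35 and −0.16, and ECD at 8.60 and −1.22 against −0.23 and −0.40. STX16, a syntaxin of the trans-Golgi network, was at 5.59 and −4.19 against 0.17 and 1.23. ANKRD54 was at 2.56 and −6.32 against −1.43 and −0.14, and ZFAND1 had NR_033195 at 9.11 and 0.47, and 3 others between −0.71 and 1.39, against −1.37 and −0.13. In control cells the ZFAND1 coding isoforms were at −7.97, 0.93 and 2.92. With 1 value per population, a difference due to RBMS1 and a difference between libraries cannot be told apart.

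Several lists of genes by function held enough non-coding isoforms to be described. The ZNF zinc finger genes, transcription factors whose mRNAs are known to be short-lived, had 25 members of 20 genes. The median over their 563 coding transcripts was −0.56 and −0.59, while the non-coding members had medians of 0.02 and −0.75. Their median gaps were 0.65 and −0.23, with 10 (40%) and 4 (16%) members at 1 or above, against 23.1% and 23.8% of all members, and 3 (12%) and 7 (28%) at −1 or below, against 21.8% and 20.5%. Gaps were above 0 in 17 of the 25 in control and below 0 in 17 in knockdown cells, and the difference between populations was not tested. Over all 702 members 358 were above 0 in the former and 334 below 0 in the latter. ZNF33B had gaps of 1.85 and 3.77, and ZNF211 of −1.76 and −0.69. In knockdown cells the ZNF33B coding isoforms were at −0.67 and −4.42.

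Other transcription factors (zinc finger, BTB, homeobox, E2F, bHLH-zipper and further families in 1 list) had 6 members with median gaps of 1.04 and −1.21. MAX, the dimer partner of MYC, was at 1.72 and −0.94 against a mean of 0.07 and 0.65 over its 6 coding isoforms, and ZBTB7B at 0.24 and 1.18 against −1.28 and −1.24. The chromatin regulators, 8 members, had median gaps of −0.43 and −0.79. PRMT1, the main arginine methyltransferase, had a non-coding isoform at −1.09 and −1.61 against a coding mean of 0.78 and 1.43, and SETD4 one at 1.04 and 1.55 against −0.65 and −2.53. In knockdown cells 1 SETD4 coding isoform was at −6.38 and the others at −0.39 and −0.81.

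DNA replication and repair genes had 16 members of 15 genes with median gaps of −0.07 and −0.66. Gaps of −1 or below were held by 4 (25%) and 6 (37.5%), against 21.8% and 20.5% of all members. CHEK1, the checkpoint kinase of stalled forks, had NR_045204 at 1.60 and 1.34 and NR_045205 at −0.73 and −3.52, against a coding mean of −0.57 and −1.11. In knockdown cells its coding isoforms were at −4.26, 0.42 and 0.51. The mitosis and cell cycle list, with 9 members, had 7 gaps below 0 in control and 8 in knockdown cells, against 344 and 334 of all 702 members. CENPU, a kinetochore protein, was at −0.33 and −0.96 against 0.67 and 0.84, and CEP20 at 0.52 and 0.03 against −0.32 and 0.04. The kinases and phosphatases of signalling, 10 members, had median gaps of −0.27 and 0.39, with STK16 at −0.88 and −0.90 against 0.31 and 0.34.

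In translation, the mitochondrial ribosomal proteins had 6 members of 5 genes, with median gaps of 0.56 and 0.82. Gaps were above 0 in 5 of the 6 in each population, against 358 and 368 of all 702 members. MRPL11 was at 1.90 and 3.29 against a coding mean of 0.48 and 0.21, MRPL30 at 0.76 and 0.88 against 0.17 and 0.05, and MRPL10 at 0.38 and 1.84 against −0.24 and −0.33. Of the cytosolic ribosomal proteins, RPL13A was at −1.80 and −0.97 against 0.05 and −0.25. Among the translation factors and tRNA synthetases, 7 members, SARS1 was at −1.22 and −1.39 against 0.19 and 0.06, and the mitochondrial TARS2 at 0.62 and 1.47 against −1.69 and −0.64.

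The respiratory chain and mitochondrial import genes had 19 members of 18 genes, with median gaps of −0.24 and −0.40. Gaps were below 0 in 10 of the 19 in control and 13 in knockdown cells, against 344 and 334 of all 702 members. SLC25A26, the mitochondrial carrier of S-adenosylmethionine, had a non-coding isoform at 0.73 and 1.88 against −0.26 and −0.09, and NDUFAF5, an assembly factor of complex I, one at −4.42 and −0.70 against 0.18 and −0.04. Carbon metabolism had 6 members with median gaps of −0.25 and −0.29. PDK1, which inhibits pyruvate dehydrogenase, was at −1.48 and −0.71 against 0.27 and 0.55, and MTHFD2, a mitochondrial folate enzyme, was level with its mRNA, at −0.11 and 0.03 against 0.15 and 0.12. Of 3 members in lipid metabolism, ACOT2, a mitochondrial thioesterase, was at −0.28 and −0.89 against 0.81 and 0.89.

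Ubiquitin ligases, proteases and conjugating enzymes had 22 members of 17 genes, with median gaps of −0.10 and 0.53. Gaps of 1 or above were held by 5 (22.7%) and 8 (36.4%), against 23.1% and 23.8% of all members. RNF121 was at −1.13 and −1.96 against −0.46 and −0.53, and the proteasome subunit PSMB3 had NR_104195 at −0.16 and −1.79 and NR_104194 at 0.29 and 0.41 against 0.44 and 0.38. Membrane trafficking genes, also with 22 members, had median gaps of 0.23 and 0.13. RAB4A, a GTPase of recycling endosomes, was at −0.16 and −1.54 against 0.37 and 0.35, and RAB24 at −1.81 and −0.75 against 0.49 and −0.02. The solute carriers, 12 members, had median gaps of 0.30 and −0.19, and SLC11A2, the intestinal iron transporter, was at −3.13 and −3.10 against −0.51 and −1.14.

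Messenger RNA decay and export factors had 4 members. CNOT1, the scaffold of the main deadenylase complex, had gaps of −0.28 and −0.32, CNOT2 of 1.22 and 0.44, and EXOSC2, of the RNA exosome, of 0.10 and 1.01. DDX39A, an export helicase, was at −1.73 and −8.85 against 0.05 and −0.04. Of the DEAD box helicases, DDX3X had 2 non-coding isoforms above its coding mean, with gaps of 0.92 and 0.59 and of 0.72 and 1.07. In the list of stress response genes and genes reported as NMD targets, 7 members had median gaps of 0.47 and 0.14, with DNAJC19 NR_033723 at 0.87 and 1.37, NR_033721 at 1.78 and 0.12 and NR_033722 at 1.25 and −0.32 against −0.05 and −0.02. KRT8, a keratin of simple epithelium, was at 0.39 and 0.75 against 0.68 and 0.45.

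In 93 genes with several non-coding isoforms the median range of the isoform values was 1.14 and 1.46. A gene had a range of 1 or more in both populations in 43 cases and under 1 in both in 23. TMEM139, with the most, had 5; in control cells all lay between −2.91 and −0.76, and in knockdown cells 4 lay between −2.02 and −1.02 and NR_104250 at 1.61. Its 4 coding isoforms ranged from −1.18 to 0.02 and from −1.88 to 1.13, so both kinds overlapped. KANSL3, a subunit of a histone acetyltransferase complex, had 4 between −1.96 and 0.87 and between −4.25 and 0.49, and 1 coding isoform at 0.77 and −2.22. For BLOC1S6, a subunit of a complex that builds lysosome-related organelles, 4 lay between −2.27 and 0.23 and between −1.22 and 0.45 around an mRNA at −0.17 and −0.30.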

How the data were processed

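RNA was sequenced from 8 libraries (2 per group; SW480 cells with control or RBMS1 shRNA, at 0 h and 9 h of alpha-amanitin). The submitters' processing notes name STAR 2.5, Cufflinks, Cuffdiff and hg38, without roles and with no version for Cufflinks and Cuffdiff. Per the file headers, the authors deposited 2 tables with 1 logFC per RefSeq accession. The values were read as log2 because Cuffdiff, which the submitters' processing notes name, writes log2, and as 9 h over 0 h because mRNAs known for rapid turnover such as MYC are negative. The deposited tables hold no counts, p-values or columns per library, so depth is unknown, no interval is given, and no transcript was filtered. All values lie within ±10.

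Symbols came from the RefSeq gene table (GRCh38.p14) and, for 46 members, from GENCODE release 29; 91 accessions in both tables had none and were left out. Gaps were computed with Python 3.11.15, pandas 2.3.3 and numpy 2.4.6, after the code was tested on simulated data, and counted at a size of 1. Transcript types, exons and stop codons came from GENCODE release 29 through its RefSeq cross-references, used only where an accession had a single match not linked to other accessions.

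Named were the 12 lowest and 12 highest same-sign gaps by the smaller gap, the 6 largest and 6 smallest differences of gap, the 2 lowest and 2 highest mean gaps of each of 25 lists (all where 6 or fewer), all members of the SR, hnRNP and NMD lists, and genes with the most members. The text gives most of these and leaves some out for length; a few items are not reported here. The members and lists were chosen with earlier results of these data known, and list patterns were trimmed after the files were seen to remove wrongly matched symbols. Alternatives changed the coding summary, the genes, the large values and the symbol source.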

Additional observations from a re-analysis of the deposited data

How the results depend on the processing

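Of 121 values recomputed under the alternatives, 111 kept their direction and stayed within the set margins (0.1 for a median, 1.5 times for a share). The median gap of all members in control cells, 0.03, was −0.017 in genes with 1 coding accession, −0.020 with 1 value per gene and −0.016 with all coding accessions of each table. The median difference of gap between populations, 0.02, was −0.003 with the median over coding accessions. These medians are near 0 under every setting run, and their sign carries nothing. For members with the stop in an exon of their own, a group defined after the data were seen, the median gap in knockdown cells was 0.588, and 0.444 with the median over coding accessions, 0.376 with the nearest coding isoform, 0.879 in genes with 1 coding accession, 0.364 without values over 4, 0.364 with 1 value per gene and 0.482 with the RefSeq gene table alone; the cause was not tested. No paired analysis was possible because the deposited values combine the libraries, and leaving out a replicate was not run for the same reason. The unknown depth limits every single value.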

Other observations

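Non-coding isoforms listed in 1 table alone, with coding accessions in both, were more extreme than the 702 members. In control cells 147 had a median gap of 0.26, with 42 at −1 or below, 52 at 1 or above, and 23 (15.6%) with a value over 4 in size. In knockdown cells 88 had a median gap of 0.87, with 20 at −1 or below, 41 at 1 or above, and 14 (15.9%) over 4 in size. Among members the share over 4 in size was 3.85% and 3.56%.

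A further 62 non-coding accessions in both tables belonged to protein-coding genes without a coding accession in both. Their medians were −0.18 in control and −0.25 in knockdown cells, with 6 and 8 at −1 or below and 2 and 7 at 1 or above.

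Among the 322 members with structure, 123 had an inner exon absent from their coding transcripts. They include 72 of the 73 NMD-type members with the stop in an exon of their own, a group defined after the values were seen. The figures here are therefore not separate from those given above. The 123 had median gaps of 0.10 in control and 0.32 in knockdown cells. Of the 123, 17.1% and 13.0% were at −1 or below, against 19.9% and 20.2% of the 322. At 1 or above were 28.5% and 33.3%, against 24.2% and 28%.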
